A study of Homo sapiens with 47 samples.

Results

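The 2 PTBP1 cluster lists made from 100,000 and from 10,000,000 cells were compared, cluster by cluster and gene by gene. They hold 769524 and 964422 clusters, together 1733946 of the 2232378 regions in all lists of the series that were at hand. Every cluster of both lists was taken, and nothing measured was used to choose them. A cluster is a stretch of the human genome, with its strand, where sequenced RNA fragments crosslinked to the protein piled up. The lists come from uSpyCLIP-seq, a crosslinking and immunoprecipitation type of assay in which the protein is captured and the RNA bound to it is sequenced. Both groups are Lenti-X 293T cells, a derivative of the human embryonic kidney line, as stable lines that express the RNA-binding protein. Cells of both groups were irradiated with UV-C on ice, lysed, and their RNA was cut with RNase I. The groups differ in the labels only in the number of cells taken, and whether they came from the same culture, clone or batch is not described there. Each group has 2 libraries but 1 list, tied to the first library, and whether it pools both is not stated there. The lists give positions and strand, without heights, scores or read numbers. With 1 list a group no test between inputs can be made and the spread between replicates is unknown. Intervals below are exact binomial 95% intervals and cover counting error only, as if clusters were independent.

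PTBP1, also called polypyrimidine tract-binding protein or hnRNP I, is a nuclear RNA-binding protein that recognises runs of U and C. It is best known as a repressor of exons, binding the pyrimidine tracts of the introns around them, and it also binds 3′ untranslated regions. In cells that are not neurons it holds down the neuronal paralog PTBP2 by promoting skipping of a PTBP2 exon.

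The clusters can be read as sequence where they fall into windows from 250 nt before to 50 nt after a gene start, taken from RefSeq on GRCh38.p14, a patch release of the assembly that the lists use (hg38). The first 3 sequences below are clusters of the 100,000-cell list that the 10,000,000-cell list also holds. Capitals mark bases covered in both lists, and the lower-case bases are the 5 flanking bases on each side. All sequences are given 5′ to 3′ on the strand of the cluster, with T for U. The examples here and below were taken from the widest clusters of 10 to 20 nt in these windows, so they are wider than most. Over the whole lists the median width was 7 nt for shared clusters at 100,000 cells. For clusters without a partner it was 5 nt at 100,000 cells and 6 nt at 10,000,000 cells. The CMC2 and CS clusters begin inside the annotated gene, and the C6orf62 cluster just before its start.
C6orf62, chr6:24719149-24719178, minus strand: gagttTTTTTTTTTTTTTTTTTTGGaaagc
CMC2, chr16:80997645-80997674, minus strand: cttgaGGCTTCCTGCTTTTCTCCTGaacct
CS, chr12:56300295-56300324, minus strand: gccgcCTCCTTTCAACCTTGTCAACccgtc

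The next 4 were listed at 100,000 cells with no overlapping cluster at 10,000,000 cells, and capitals mark the cluster. They begin before the annotated start. The first 3 are mostly U and C, and the EPB41 cluster holds A and G as well.
BACH1-IT3, chr21:29496030-29496057, plus strand: aacccTTCCTTCTTATCCTTTTCctggg
BCL2L13, chr22:17706744-17706765, plus strand: attctCTTTTCATTTCCtgggc
COX17, chr3:119677101-119677122, minus strand: ctgccCTCTGCCTTCTGccctc
EPB41, chr1:28914368-28914389, plus strand: cctctCCTTACCGGCCTagggg

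The last 3 were listed at 10,000,000 cells with no overlapping cluster at 100,000 cells, again with the cluster in capitals. The ETS2 cluster is a pure run of pyrimidines, and the KMT5C cluster, which begins inside the gene, is rich in G.
ETS2, chr21:38805802-38805831, plus strand: ttcccTCCCCTCTCTCTTCTCTCCTccctc
ATP5F1A, chr18:46098275-46098304, minus strand: ggctcGGCCATTTTGTCCCAGTCAGtccgg
KMT5C, chr19:55339894-55339923, plus strand: aaggaGGCTGTGGGAGGTGTTGGCGgcggc

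Over all clusters in these windows, 34943 windows of 300 nt outside chromosome 8, clusters of both lists were rich in U. U made up 41.4% of the cluster bases for the clusters of the 10,000,000-cell list that overlapped the other list, and 36.1% for those that did not. In the 100,000-cell list the values were 46.1% and 46.9%, against 21.3% over all bases of the windows. The clusters found at 10,000,000 cells only thus had the lowest U content of the 4 classes. The motif TCTT, read as UCUU in RNA and a known PTBP1 motif, was searched on the transcript strand in 31 nt centred on each cluster, where these fit into the window. It was present in 42.3% of shared clusters of the 10,000,000-cell list and in 21.4% (interval 19.4% to 23.6%) of those without a partner. In the 100,000-cell list it was present in 40.3% of shared clusters and in 34.0% (29.2% to 39.1%) of those without a partner. Among clusters without a partner that began before the gene start, 24.1% at 10,000,000 cells and 38.3% at 100,000 cells held the motif. Among those that began after the start the shares were 17.2% (14.3% to 20.5%) and 17.9% (10.2% to 28.3%). The latter rests on 14 of 78 clusters, too few to say whether the difference lay before the start only. The mix differed too, as 718 of 1688 and 106 of 407 began after the start. Of all 31 nt stretches in the windows, 10.4% held TCTT. The motif GCATG, known for the RBFOX proteins, was in 0.977% of the clusters at 10,000,000 cells only and in 1.88% of those at 100,000 cells only, beside 2.06% of all stretches. These windows hold 2329 and 1167 clusters of the lists, a small part of each, and stretches around gene starts are rich in G and C, so the values describe these windows and not the lists as a whole.

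The 100,000-cell list held 79.8% as many clusters as the 10,000,000-cell list and covered 5750 kb against 8082 kb, or 71.1%. Median cluster width was 6 nt in both lists. The mean was 7.47 nt at 100,000 cells and 8.38 nt at 10,000,000 cells. Wide clusters differed most, with 2713 clusters of 50 nt or more (0.353%) against 7773 (0.806%). Within genes, clusters lay closer together at the higher input. The median gap to the next cluster of the same gene was 27 nt at 10,000,000 cells and 41 nt at 100,000 cells. The kinds of RNA were alike: 93.6% of clusters of both lists lay in protein-coding genes, and 2.36% of both lay outside annotated genes. Long noncoding RNA genes held 3.32% of the 10,000,000-cell clusters and 3.34% of the 100,000-cell clusters.

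Of the 100,000-cell clusters, 55.8% (55.7% to 55.9%) shared 1 nt or more, strand included, with a 10,000,000-cell cluster, and 340321 did not. In the other direction 41.3% (41.2% to 41.4%) of 10,000,000-cell clusters overlapped the smaller list, and 565745 did not. On the opposite strand only 11 clusters of either list met one of the other. Few clusters lay outside annotated genes (2.36% of both lists), so this count gives no chance level for overlap on the same strand. The overlap on the same strand rose steeply with width. Among 100,000-cell clusters of 3 nt 32.6% had a partner, among those of 6 nt 47.4%, and among those of 11 to 15 nt 88.9%. Of the 2554 clusters wider than 50 nt, 2 had none. In the 10,000,000-cell list the shares at the same widths were 18.8%, 29.8% and 70.6%, and 52 of 7401 clusters wider than 50 nt had none.

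**Figure D1:**
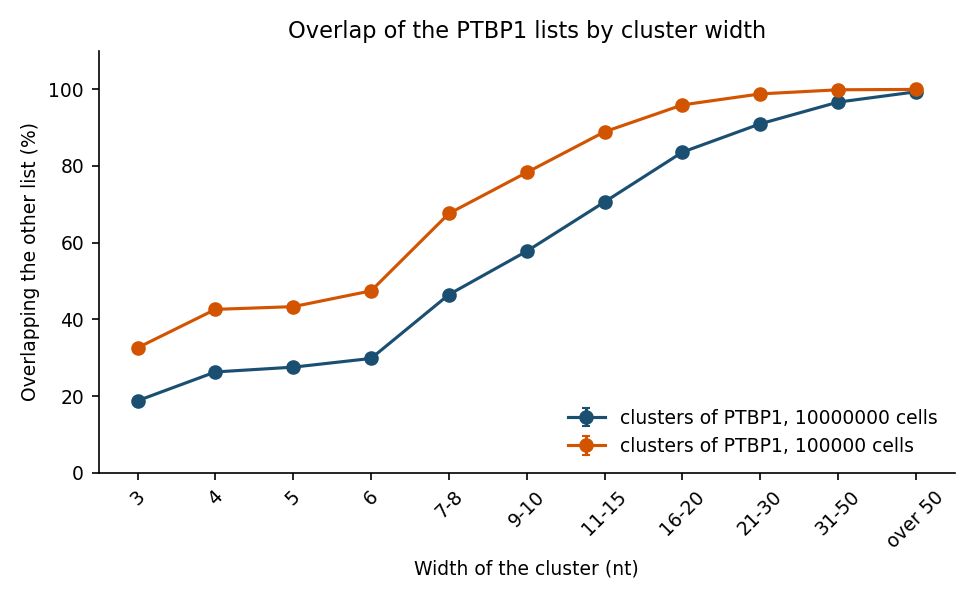
Percent of clusters that overlap the other list on the same strand (y axis) by cluster width in nt (x axis, binned), for both PTBP1 lists, with exact 95% binomial intervals mostly smaller than the points. Both curves climb from the 3 nt clusters, at 18.8% and 32.6%, to over 99% for the widest.

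Clusters without a partner were narrow, with a mean of 5.22 nt at 100,000 cells and 5.88 nt at 10,000,000 cells, against 9.25 nt and 11.9 nt for those with one. Wider clusters of one list often spanned several of the other. At 10,000,000 cells 45976 clusters, of median width 23 nt, overlapped 2 or more clusters of the smaller list, and at 100,000 cells 26822 clusters, of median width 17 nt, did so. Most clusters without overlap lay near one. The median distance to the nearest cluster of the other list on the same strand was 39 nt for the 340321 clusters and 40 nt for the 565745. Within a list, the median gap between neighbouring clusters of a gene was 27 nt at 10,000,000 cells and 41 nt at 100,000 cells. Such distances alone therefore do not show near misses of the same sites. Counting overlaps as well, 79.7% of 100,000-cell clusters and 73.4% of 10,000,000-cell clusters had a cluster of the other list within 50 nt. Farther than 5000 nt from any were 1.32% and 2.24%.

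The shared clusters were also those met in the other lists. Of 10,000,000-cell clusters with a 100,000-cell partner, 31.1% overlapped the PTBP1 list from 10,000 cells, and of those without a partner 5.07% did. For 100,000-cell clusters the shares were 31.3% and 4.25%. Read from the other side, 60.3% of the 248168 clusters at 10,000 cells overlapped both lists, 37215 clusters the 10,000,000-cell list only, 16678 the 100,000-cell list only and 44739 neither. Clusters of RBFOX2, a splicing regulator with another motif, taken from 10,000,000 cells, showed the same order, with 72.8% in both lists. Since a wide cluster meets another more easily and shared clusters are wider, width moves with these shares, and its part in them was not tested.

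Gene by gene, most genes with clusters had them at both inputs. Clusters were given to the annotated gene over their midpoint on the same strand, or on either strand where the gene's strand was unknown. A cluster was found in 14383 genes at 10,000,000 cells and in 13114 genes at 100,000 cells, 12262 of them in common, of 15235 in either list. At 100,000 cells 852 genes were gained (percent of the 15235 genes: 5.59) and 2121 were lost (13.9). Most of these rested on 1 or 2 clusters, as 789 of the gained genes and 1581 of the lost genes did. The losses reached genes with more clusters, with 103 lost genes of 10 or more clusters against 3 gained. Of those 103 genes, 78 had no cluster at 10,000 cells and 84 none in the RBFOX2 list. These shorter lists reached 10316 and 8505 genes in all. Of the 8919 genes with a mean of at least 10 clusters, compared below, 91.7% had a cluster at 10,000 cells. That set is not matched to the 103 genes in number of clusters.

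Number of clusters was compared as a share of each list, in the 8919 genes with a mean of at least 10 clusters. A share ratio of 1 means the same share of both lists, and a ratio past 2-fold either way was counted. By this rule 148 genes (1.66%) were higher at 100,000 cells and 1028 (11.5%) lower. The median log2 share ratio over all 8919 genes was -0.13, with quartiles of -0.53 and 0.19. Without scaling for the length of the lists the median was -0.45, and 7359 genes had fewer clusters at 100,000 cells, 1410 more and 150 the same number. Median density over these genes was 1.56 clusters per kb at 10,000,000 cells and 1.11 at 100,000 cells. Across genes the numbers of clusters ranked alike, with a Spearman rho of 0.92 over the 8919 genes, which share both libraries and are not independent replicates. Clusters were more concentrated at the lower input: 1249 genes held 50% of the clusters in genes, against 1551 at 10,000,000 cells.

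The genes with the most clusters at both inputs were long ones. TTC28 had 1652 clusters at 10,000,000 cells and 1688 at 100,000 cells. ROBO1, the receptor for SLIT guidance cues, had 1459 and 1530. FHIT, at a common fragile site, had 1507 and 1226, LRBA 1484 and 1392, and DIAPH3, a formin that nucleates actin, 1489 and 1083. MIR924HG, a long noncoding host gene, had 1038 and 1240. Of these 6 genes, TTC28, ROBO1 and MIR924HG had more clusters at 100,000 cells although that list is shorter.

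Transcripts of PTBP1 and its paralogs had clusters at both inputs. PTBP1 itself had 79 clusters at 10,000,000 cells, 52 at 100,000 cells, 25 at 10,000 cells and none at 1000 cells. Inside the gene the change lay at the 3′ end, with 42 clusters in the last 2000 nt at 10,000,000 cells and 13 at 100,000 cells, while the rest of the gene had 37 and 39. RNA of the introduced protein, where it carries the same bases, cannot be told apart from the cell's own. PTBP2, the paralog that PTBP1 holds down, had 411 and 394 clusters, or 4.03 and 3.86 per kb, and 73.4% of its 100,000-cell clusters overlapped the larger list. PTBP3, the third member of the family, had 210 and 206. Of the 10,000,000-cell clusters 40.5% overlapped the smaller list in PTBP1, 60.8% in PTBP2 and 41.4% in PTBP3. All 3 genes had fewer clusters at 100,000 cells, whereas the share of the list was higher for PTBP2 and PTBP3 (share ratios 1.20, interval 1.04 to 1.38, and 1.23, interval 1.01 to 1.50) and lower for PTBP1 (0.825, interval 0.570 to 1.19).

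Genes with exons known to respond to PTBP1 lay close to the average of all genes. Of 25 genes listed, 20 were compared, with a median log2 share ratio of 0.03 beside -0.13 over all genes. None was past 2-fold higher and 2 were past 2-fold lower, where 1.66% and 11.5% of all genes were. These were the kinase SRC, with 54 clusters at 10,000,000 cells and 16 at 100,000 cells, and TBC1D1, a Rab GTPase-activating protein, with 46 and 14. The death receptor gene FAS had 6 clusters and then none. KIF1B, a kinesin, had 385 and 255, RTN4, which encodes Nogo, 254 and 206, and the homeobox gene MEIS2 187 and 251. Of MEIS2's 251 clusters 46.2% overlapped the larger list, so its higher number came with many positions not listed at 10,000,000 cells.

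Transcripts of other splicing proteins were compared next. Of 27 hnRNP genes, which encode proteins that package pre-mRNA, 23 were compared, and 1 was past 2-fold lower, where 11.5% of all genes were. This was HNRNPA3 with 36 and 14 clusters. Their median log2 share ratio was 0.11. HNRNPC had 211 clusters at 10,000,000 cells and 228 at 100,000 cells, MATR3 253 and 185. None of the 16 SR protein genes compared, which encode activators of exons, was past 2-fold either way (all genes: 1.66% higher and 11.5% lower), and their median was 0.04. SRSF11 had 209 and 173 clusters, SRSF1 137 and 124. In both lists of genes the total fell, from 1879 to 1660 and from 1277 to 1119 clusters, although the median by share lay above that of all genes.

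The lost genes with the most clusters were ETV5, ETV1, GABRE, SLC6A11 and ZMAT1. ETV5, a transcription factor of the ETS family at chr3:186046314-186109089, had 95 clusters at 10,000,000 cells, none at 100,000 or 10,000 cells and none for RBFOX2, and 1 at 1000 cells. ETV1, of the same subfamily, had 84 clusters at 10,000,000 cells and none at 100,000 cells. Both factors are known to be induced by ERK, the kinase at the end of the growth factor cascade. ERK also induces inhibitors that feed back on RAS, such as the Sprouty proteins, to which the SPRED proteins are related.

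After these values were seen, 20 genes that ERK signalling is known to induce or that restrain it were gathered, so their counts are a description. Of these genes 19 had a cluster at 10,000,000 cells and 9 at 100,000 cells. Lost were 10, where 13.9% of the 15235 genes with a cluster in either list were. The total was 760 clusters at 10,000,000 cells, 99 at 100,000 cells, 16 at 10,000 cells and 8 for RBFOX2. All 9 that were compared were past 2-fold lower, where 11.5% of all genes were. ETV1 and ETV5, whose loss prompted the list, are among the 10 lost and the 9 lower, so neither count is a test. ETV4 had 34 clusters and then 1. SPRY4, a Sprouty protein, had 39 and then none, and SPRY1 23 and 2. The SPRED genes had the most clusters at 100,000 cells, SPRED1 with 174 and 49 and SPRED2 with 219 and 33. Of SPRED2's 33 clusters 81.8% lay on clusters of the larger list, and of its 219 clusters 10.0% lay on clusters of the smaller list. EGR1, an immediate early transcription factor, had 18 and none, FOSL1, a FOS family member, 9 and none, and EPHA2, an ephrin receptor, 25 and 4. CCND1, which encodes cyclin D1, had 17 and 5. At the low end of the list, IER3 had no cluster in either list, PHLDA1 had 1 in both, and SPRED3 had 3 and 2. The lists hold no RNA levels, so less of these RNAs in the cells and less binding per RNA cannot be told apart. A difference between cultures or batches cannot be told apart from the input either.

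**Figure D2:**
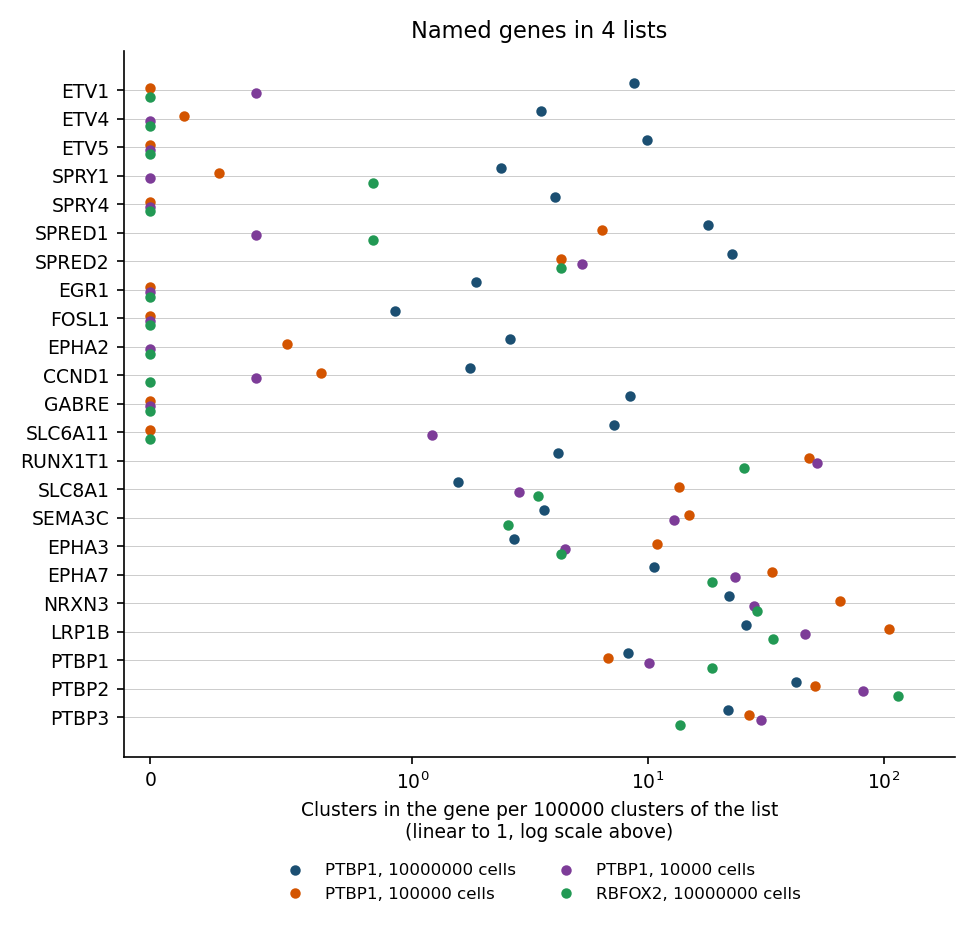
Clusters in 23 named genes per 100000 clusters of each list (x axis, linear to 1 and logarithmic above) for PTBP1 at 10,000,000, 100,000 and 10,000 cells and RBFOX2 at 10,000,000 cells. From ETV1 to SLC6A11 the dark blue points of the 10,000,000-cell PTBP1 list lie to the right of the others, and from RUNX1T1 to LRP1B they lie left of the 100,000-cell points.

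Other genes with large losses came from several functions. GABRE, a subunit of GABA-A receptors, had 81 clusters and then none, and SLC6A11, a GABA transporter, 69 and none. ZMAT1, a zinc finger gene, had 44 and none. Among the 4648 genes with a mean of at least 50 clusters, 113 were past 2-fold lower and 40 past 2-fold higher. The lowest share ratio was that of SYTL5, a synaptotagmin-like protein of vesicle traffic, with 199 clusters at 10,000,000 cells, 11 at 100,000 cells and 1 at 10,000 cells (ratio 0.0693, interval 0.0340 to 0.127). KIAA1217 had 118 and 10, and BCL2, the inhibitor of apoptosis, 144 and 22. PCCB, a subunit of propionyl-CoA carboxylase, had 95 and 17, and ANTXR2, a receptor of anthrax toxin, 113 and 21. DIXDC1, of the WNT pathway, had 97 and 20. The potassium channel gene KCNB2 had 283 and 56, and ANKS1B, a synaptic protein, 131 and 27. The RBFOX2 list, which is shorter, held no cluster in SYTL5 or KIAA1217, 1 in ANTXR2 and 10 in PCCB.

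The 1028 genes past 2-fold lower had a median length of 37974.5 nt beside 47765 nt for all genes compared. At 10,000,000 cells 18.8% of their clusters lay in the last 2000 nt, beside 7.29% over all genes and 3.98% in the 148 genes past 2-fold higher. Their totals were 46544 clusters at 10,000,000 cells, 12722 at 100,000 cells, 3919 at 10,000 cells and 1574 for RBFOX2. The 148 higher genes had 5914, 12059, 2117 and 876. For each 1000 clusters at 10,000,000 cells the 10,000-cell list thus held 84.2 in the lower genes, 358 in the higher genes and 260 in all genes. All these ratios share the 10,000,000-cell list as denominator, which also chose the genes, so they are given side by side and no more.

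Among the genes with a mean of at least 50 clusters, RUNX1T1 had the highest share ratio. This transcriptional corepressor, at chr8:91954967-92103385, had 40 clusters at 10,000,000 cells, 370 at 100,000 cells and 129 at 10,000 cells, and 30 for RBFOX2 (share ratio 11.6, interval 8.35 to 16.5). Of its 40 clusters 80.0% were found again, while 7.84% of the 370 overlapped one of the 40. SLC8A1, a sodium-calcium exchanger, had 15 and 104 clusters (8.69, interval 5.03 to 16.1). SEMA3C, a secreted guidance cue, had 35 and 115, and NKAIN2, which binds the sodium pump, 23 and 79. PAG1, a membrane adaptor, had 26 and 81, and LRRTM4, a synaptic adhesion protein, 109 and 294. In these 6 genes at most 19.7% (LRRTM4) of the 100,000-cell clusters overlapped the larger list, beside 55.8% of the whole list. A gene with few clusters at 10,000,000 cells offers few to overlap.

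Axon guidance and neuronal adhesion genes together held a larger part of the 100,000-cell list, with 10 of the compared genes having fewer clusters there and 11 more. Of 35 genes 29 had a cluster at 10,000,000 cells, and 22 were compared. Their total was 5998 clusters at 10,000,000 cells and 6984 at 100,000 cells, and their median log2 share ratio was 0.36 beside -0.13 over all genes. Without SLIT2 and NRXN3 the totals were 5075 and 5355. Past 2-fold higher were 3, where 1.66% of all genes were. EPHA3 and EPHA7, receptors of ephrins, had 26 and 84 clusters and 102 and 257, and the presynaptic NRXN3 had 213 and 501. SLIT2, which repels axons through ROBO receptors, had 710 and 1128 (share ratio 1.99), just inside the 2-fold limit. PTPRM, a receptor phosphatase of cell contacts, went the other way with 59 and 9. NTM had 1 cluster and then none. Lengths differ, with EPHA7 at 180 kb, EPHA3 at 375 kb, ROBO1 at 1171 kb and NRXN3 at 1698 kb. Protein-coding genes over 500 kb that were compared had a median log2 share ratio of 0.15, and 6.11% were past 2-fold higher. What part of the group's values goes with length was not tested.

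Genes at common fragile sites, which are very long and replicate late, differed among themselves. Their total was 6402 clusters at 10,000,000 cells and 6822 at 100,000 cells over 18 genes, with a median log2 share ratio of 0.33 over the 17 compared. Without LRP1B the totals were 6150 and 6009, fewer at 100,000 cells. LRP1B, of the LDL receptor family, had 252 and 813 clusters, and PARD3B, a polarity protein, 148 and 240. DLG2, a synaptic scaffold, had 59 and 6. By raw numbers 8 of the 17 had fewer clusters and 8 more at 100,000 cells, so the group did not move as one. WWOX had 595 and 701, AUTS2 880 and 1118, and IMMP2L 696 and 597. Genes at such sites are long, and ratios over all genes moved with length, as given below.

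Ribosomal protein genes, mostly short and highly transcribed, had fewer clusters in all at 100,000 cells. The large subunit genes held 819 clusters at 10,000,000 cells and 531 at 100,000 cells, with a median log2 share ratio of -0.32 over 25 genes, and the small subunit genes 460 and 324, with a median of -0.25 over 13. Past 2-fold lower were RPL3, RPL8, RPL15 and RPL28 of the first and RPS23 of the second, and none was past 2-fold higher. These are 4 of 25 and 1 of 13 genes, beside 11.5% of all genes, and protein-coding genes of up to 5 kb had a median of -0.28. RPL28 had 30 and 5 clusters and RPL11 had 12 and then none. RPS15 was gained with 4 clusters. RPL22 had 59 and 49, and RPL37A 61 and 44. Reads from the many processed copies of these genes can be placed at either locus, which makes their counts uncertain. Replication-dependent histone genes, without introns in most cases, had 104 and 48 clusters in all, and near-identical copies make these counts uncertain too.

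Other groups had medians from -0.05 to 0.18, beside -0.13 over all genes. Of 18 housekeeping genes compared, the median log2 share ratio was 0.00. The adaptor gene YWHAZ was past 2-fold higher with 43 and 86 clusters, and VIM, which encodes vimentin, past 2-fold lower with 26 and 5. Of 29 cell cycle genes compared the median was 0.03, and CENPF, a kinetochore protein, was past 2-fold higher with 69 and 117. Of 24 genes of oxidative phosphorylation the median was -0.05, and COX5A (11 and 19 clusters) was among those past 2-fold higher. Nuclear long noncoding RNAs had a median of 0.04 over 8 genes. Of these 3 had more clusters at 100,000 cells, FTX with 674 and 826, PVT1 with 502 and 601 and JPX with 452 and 530. The other 5 had fewer, and the lowest ratio, looked up after the values were seen, was that of OIP5-AS1 with 68 and 28. Host genes of small nucleolar RNAs had a median of 0.18 over 6, and SNHG16 was past 2-fold lower with 30 and 7. Among small structured RNAs, RPPH1, the RNA of RNase P, had 11 clusters in both lists, and RMRP, its relative, 6 and 3.

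Few genes were gained with many clusters. ZNF703, a zinc finger corepressor, had none at 10,000,000 cells, 24 at 100,000 cells, none at 10,000 cells, 14 at 1000 cells and 20 for RBFOX2, and 23 of the 24 lay in its last 2000 nt. Its strand, like those of ETV5, RUNX1T1 and LRP1B, was inferred from the clusters. C1orf50 was gained with 11 clusters, GPR50, a relative of melatonin receptors, with 10, YJU2B with 9 and CALML4, a calmodulin-like protein, with 8. At 10,000 cells these 4 had 1, 0, 3 and 1.

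Along protein-coding genes the lists differed most at the 3′ end. In the last 2000 nt lay 7.74% (7.68% to 7.79%) of the 10,000,000-cell clusters in such genes and 4.51% (4.46% to 4.56%) of the 100,000-cell clusters, a ratio of 0.583. The 100,000-cell list was the low one of 5, since the share was 9.36% at 10,000 cells, 12.1% at 1000 cells and 7.71% for RBFOX2. In numbers, 69650 clusters in the last 2000 nt became 32389, or 0.465 of them, whereas the rest of the genes went from 830535 to 686173, or 0.826. Of 7233 genes with a cluster there, 5968 had fewer at 100,000 cells, 764 more and 501 the same number. Those with fewer are 82.5%, and over whole genes 82.5% of the 8919 compared had fewer. The sets are unlike, as the 8919 have a mean of at least 10 clusters and include genes that are not protein-coding. This count therefore cannot show whether ends and whole genes differ. In the 3100 genes with a mean of at least 5 clusters there, 1180 (38.1%) were past 2-fold lower by share and 29 (0.935%) past 2-fold higher. In 2619 genes with enough clusters in both regions, the median log2 share ratio was -0.77 in the last 2000 nt and -0.00 in the rest. The end lay below the rest in 2135 of them, or 81.5%. No exon annotation was used here, so the last 2000 nt are a distance from the annotated end and can hold the 3′ untranslated region, coding exons or introns.

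**Figure D3:**
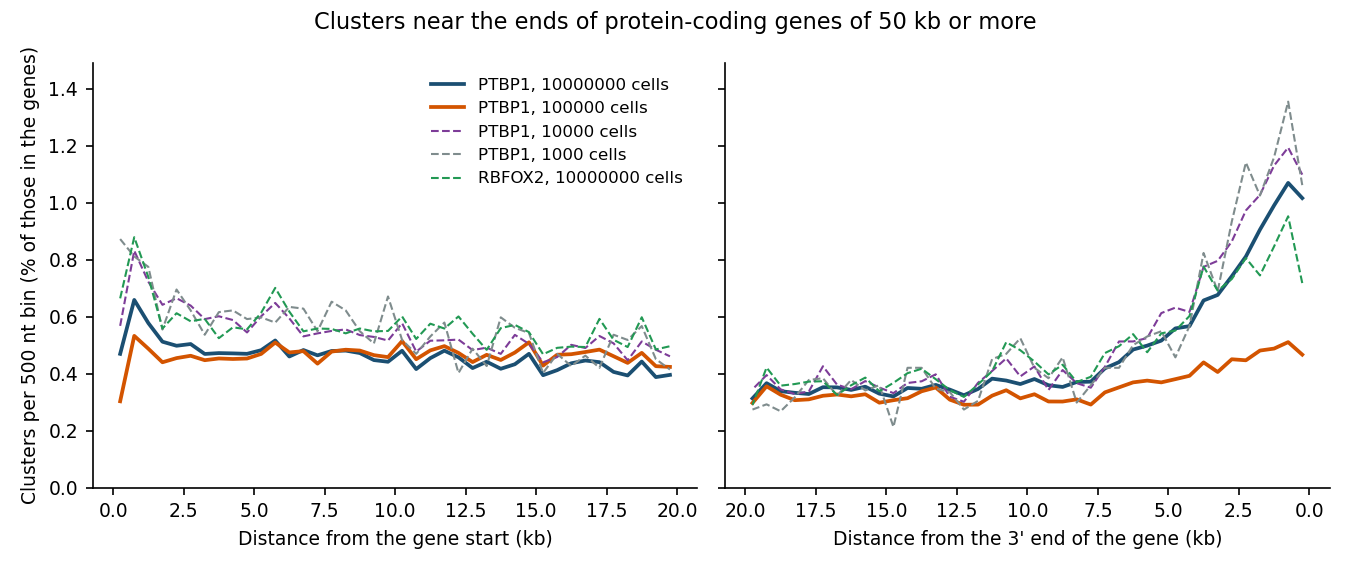
Percent of the clusters in protein-coding genes of 50 kb or more that fall into each 500 nt bin (y axis), by distance in kb from the gene start (left) and from the 3′ end (right), for 5 lists. From 500 to 1000 nt before the 3′ end the 100,000-cell PTBP1 list has 0.511%, and the 10,000,000-cell list 1.07%.

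The fall began several kilobases before the end. In genes of 50 kb or more, the bin from 5000 to 5500 nt before the end held 0.517% of the 10,000,000-cell clusters and 0.370% of the 100,000-cell clusters, and the bin from 500 to 1000 nt 1.07% and 0.511%. In genes of at least 20000 nt cut into 10 equal bins, the last bin held 14.5% and 9.73%, the first 12.9% of both, and bin 4 from the start 9.09% and 10.2%. Gene starts differed less than ends. The first 2000 nt held 4.32% and 3.62%, and the first 500 nt 0.932% and 0.670%.

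Most clusters at gene ends in the smaller list were also in the larger one. Of 100,000-cell clusters in the last 2000 nt, 79.7% overlapped a 10,000,000-cell cluster, against 54.9% in the rest of the genes. Of 10,000,000-cell clusters the order was the opposite, with 29.6% in the last 2000 nt and 42.5% in the rest. Thus 49038 clusters at gene ends were listed at 10,000,000 cells only, and 6570 at 100,000 cells only. The lists are unequal there, with 69650 clusters at 10,000,000 cells and 32389 at 100,000 cells. Clusters at the ends were also wider, with means of 10.7 nt and 8.93 nt against 8.21 nt and 7.41 nt in the rest. What part of these shares goes with number and width was not tested.

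The largest falls at gene ends came in genes of many functions. SLC7A5, which carries large neutral amino acids, had 71 clusters in its last 2000 nt at 10,000,000 cells and 14 at 100,000 cells. SCAMP5, of secretory vesicles, had 80 and 26, N4BP1, an RNase, 75 and 23, and the kinase gene STK35 65 and 14. Of transcription regulators, SOX13 had 67 and 18, the nuclear receptor PPARD 60 and 14, and SMARCD1, of the BAF remodelling complex, 59 and 13. DLGAP4, a synaptic scaffold, had 60 and 11, and FAM222B 65 and 18. N4BP1 and PPARD had share ratios of 0.734 and 0.757 over the whole gene, closer to 1 than at their ends. The largest rises, picked after their values were seen, were smaller. TEX261 had 38 and 70 clusters there and ERO1A, the oxidase that serves disulfide formation, 34 and 57. Of the clusters of TEX261 at 100,000 cells 91.3% overlapped the larger list.

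Cluster numbers also followed gene length. In protein-coding genes of up to 5 kb the 100,000-cell list held 0.586 times the clusters of the 10,000,000-cell list, or 0.435 against 0.742 per kb. The ratio was 0.631 from 5 to 10 kb, 0.740 from 20 to 50 kb, 0.816 from 100 to 200 kb and 0.968 in the 315 genes over 500 kb, which had 0.193 and 0.199 clusters per kb. Without the last 2000 nt it still climbed, from 0.624 to 0.974. In the last 2000 nt themselves it went down with length, from 0.568 in the shortest genes to 0.292 in the longest. The ratios of the end and of the rest thus lay furthest apart in the longest genes. The share of compared genes past 2-fold lower was 19.6% up to 5 kb and 10.0% over 500 kb, and the share past 2-fold higher 1.27% and 6.11%.

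**Figure D4:**
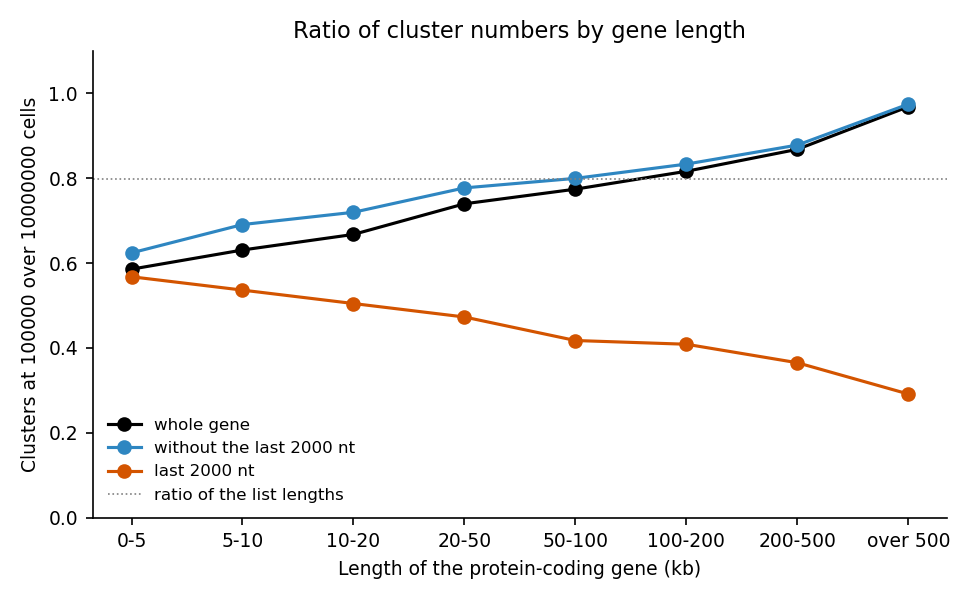
Number of clusters at 100,000 cells over that at 10,000,000 cells (y axis) by length of protein-coding genes in kb (x axis), for whole genes, for the last 2000 nt and for genes without them, with the ratio of the list lengths (0.798) dotted. The ratio for whole genes goes from 0.586 to 0.968, and that for the last 2000 nt from 0.568 to 0.292.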

How the data were processed

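The authors deposited 1 list of clusters per group in BED format, with positions and strand on hg38 and no score. Per the submitters' processing notes, reads went through STAR 2.7.9a and Trim Galore 0.0.6, listed without order, and the build was hg38. Not given in the sources used here are the cluster caller, its thresholds, duplicate removal, pooling of libraries and their depth, so no interval here covers them.

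Clusters were given to RefSeq genes (GRCh38.p14) over their midpoint on the same strand, small RNAs first, then protein-coding and long noncoding genes, the shortest on ties. Genes for which no strand was known or inferred took clusters of either strand. The gene strand came from RefSeq tables for 15843 of 20037 protein-coding genes and from the clusters of both lists for 1888 more, where at least 3 clusters lay at least 90% on 1 strand. Of 8873 protein-coding genes with a known strand that gave a call, 96.5% were inferred as in RefSeq, from all clusters in their span. For genes of unknown strand, clusters outside genes of known strand were used where at least 3 existed. The check is thus of a slightly different rule. Share ratios divide each gene's number of clusters by the list's, and log2 values add 0.5 clusters. Their intervals are exact conditional binomial intervals. Clusters of a gene are not independent, so the true error is larger. Analyses ran in Python 3.11.15 with numpy 2.4.6, pandas 2.3.3, scipy 1.17.1 and matplotlib 3.10.9, and the scripts were tested on simulated lists.

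The genes named are the members of each list with most clusters or gained or lost, the 10 with the highest and the 10 with the lowest share ratio among genes with a mean of at least 50 clusters, the 5 gained and 5 lost with most clusters, the 10 with the largest fall in the last 2000 nt and the 5 with most clusters. List members past 2-fold, the members of the ERK list and the largest rises were added after their values were seen. Some genes that the rule names are not reported here. The members and lists were chosen with earlier results of these data known. Alternatives covered the overlap rule, cluster width, gene assignment, scaling, minimum number and the window at gene ends.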

Additional observations from a re-analysis of the deposited data

How the results depend on the processing

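No paired analysis was possible because each group has 1 list and the lists carry no replicate, and for the same reason no replicate could be left out. The overlap depended on its definition. The share of 100,000-cell clusters with a partner was 31.7% when 50% of both clusters had to overlap, 67.8% within 10 nt and 66.8% for clusters of at least 10 nt, and that of 10,000,000-cell clusters 25.3% and 54.8% under the first 2 rules. With at least 3 clusters in a gene, 63 genes were gained and 540 lost. Without scaling 55 of the 8919 genes were past 2-fold higher and 1769 lower. With a mean of at least 20 clusters 94 and 563 were, out of only 7318 genes. With ratios centred on their median, added after seeing the data, 229 of the 8919 were higher. The ratio of the last-2000-nt shares was 0.560 for the last 1000 nt, 0.659 for 5000 nt and 0.546 by covered length, and, in checks added after seeing the data, 0.537 in genes of at least 20000 nt and 0.572 for clusters of at least 10 nt. It stayed below 1 in each, and more genes were lower than higher, and more lost than gained, under each alternative run. The other 13 values were within 1.5 times the main count or within the interval. The cause of these moves was not tested. What the authors' caller kept at each input, and how deep the libraries were, limits every count here.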

Other observations

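MicroRNA hairpins, the folded precursors of microRNAs, held few clusters. Of 1562 hairpins in the RefSeq table, 64 held a cluster at 10,000,000 cells and 40 at 100,000 cells, 25 of them in both, with 97 and 52 clusters in all. MIR4517 on chromosome 16 had the most, with 4 clusters at 10,000,000 cells and 7 at 100,000 cells, covering 32 and 37 of its 79 nt, 22 of them in common. MIR3192 on chromosome 20 had 3 and 2 clusters, covering 32 and 17 of its 77 nt. Its sequence is shown with the bases in clusters in capitals, first for 10,000,000 and then for 100,000 cells, to show where the 14 nt covered in both lists lie. The run of pyrimidines at its 3′ end was covered at 10,000,000 cells only.
MIR3192, 10,000,000 cells: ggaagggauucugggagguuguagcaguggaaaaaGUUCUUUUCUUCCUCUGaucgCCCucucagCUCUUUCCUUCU
MIR3192, 100,000 cells: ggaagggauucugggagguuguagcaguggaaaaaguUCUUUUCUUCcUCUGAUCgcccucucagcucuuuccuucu

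By chromosome, the share of the list on chromosome 19 was 2.51% at 10,000,000 cells and 2.13% at 100,000 cells, a share ratio of 0.850. The other autosomes and X lay between 0.954 and 1.05.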
